A study of Mus musculus with 2 samples.

Results

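Polycomb and BAF are opposing families of chromatin complexes, and the transcripts of 49 of their subunits were followed here in mouse embryoid bodies with and without FGF10. Embryoid bodies are the aggregates in which embryonic stem cells start to differentiate. They were grown as hanging drops from CGR8, an embryonic stem cell line of strain 129 kept without feeder cells. The FGF10 group was 1 array of embryoid bodies in differentiation medium with recombinant FGF10, a secreted fibroblast growth factor, at 100 ng/ml. The control group was 1 array of embryoid bodies in the same medium with no agent. The labels date the RNA to day 2, while the design text places it 24 hours after treatment of embryoid bodies already 2 days old, so the stage is not settled. The genes were chosen by name, 28 Polycomb and 21 BAF subunits, and each was read from Affymetrix probe sets annotated with that gene symbol alone. Of the 49 genes, 48 had such a probe set and 43 (25 Polycomb, 18 BAF) had at least 1 with a mean signal of 76.35 or more, out of 11122 genes measured on these arrays.

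Polycomb complexes keep developmental genes silent in embryonic stem cells. Polycomb repressive complex 2 (PRC2) methylates histone H3, and Polycomb repressive complex 1 (PRC1) ubiquitinates histone H2A and compacts chromatin. BAF complexes, the mammalian SWI/SNF family, use ATP to move or evict nucleosomes and oppose Polycomb at many sites. Embryonic stem cells carry a particular set of BAF paralogues, and some of these are exchanged for others when cells become neurons or heart muscle.

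Almost no subunit differed by a large factor between the arrays. Only Phc2, a PRC1 subunit, was past 1.5-fold, and it was higher with FGF10. In the Polycomb list 1 of 25 measured genes was at least 1.5-fold higher and 0 were lower, and in the BAF list 0 of 18 were higher and 0 lower. Over all 11122 genes, the shares past 1.5-fold were 5.41% upward and 4.86% downward. Past 2-fold, where no subunit lay, they were 1.32% upward and 1.29% downward. With all genes split by signal into 4 groups of equal size, the brightest group held 24 of the 43 subunits. In that group 0.971% of genes were at least 1.5-fold higher and 1.4% lower, so the count of 0 for these 24 subunits is near the background. The other groups, from dim to bright, held 6, 6 and 7 subunits, Phc2 among the 7. In them 289 of 2781, 179 of 2779 and 107 of 2781 genes were at least 1.5-fold higher, and 350, 112 and 39 lower. At the rates of the 4 groups few of any 43 genes would be past 1.5-fold. The count of 1 is therefore not read as a trait of these subunits. No test was possible with a single array in each group, and each ratio describes these arrays only.

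All ratios below are on the log2 scale, FGF10 over control, minus the median over kept probe sets (0.034), on each gene's brightest probe set unless another is named. Signal is the MAS5 value, a brightness scaled within each array, and the levels of different probe sets cannot be compared as amounts of RNA. The measure of error is the spread between the 2 brightest probe sets of a gene, whose SD was 0.20 in the brightest group of genes, 0.24 and 0.33 in the middle groups and 0.39 in the dimmest. It covers error within these arrays and not the variation between cultures. Of the 43 subunits, 35 lay within 1 such SD of 0, against 61.0% of all genes. Beyond 2 SD lay Phc2 and Jarid2, 2 of 43, against 10.4% of all genes. Which subunits stand out depends on the normalization. Loess on signal, which removes the trend with brightness, put Phf10 and Rbbp7 at 0.42 each and Jarid2 at 0.48. Without it these were at 0.35, 0.18 and 0.40, and the SDs were not computed again.

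**Figure D1:**
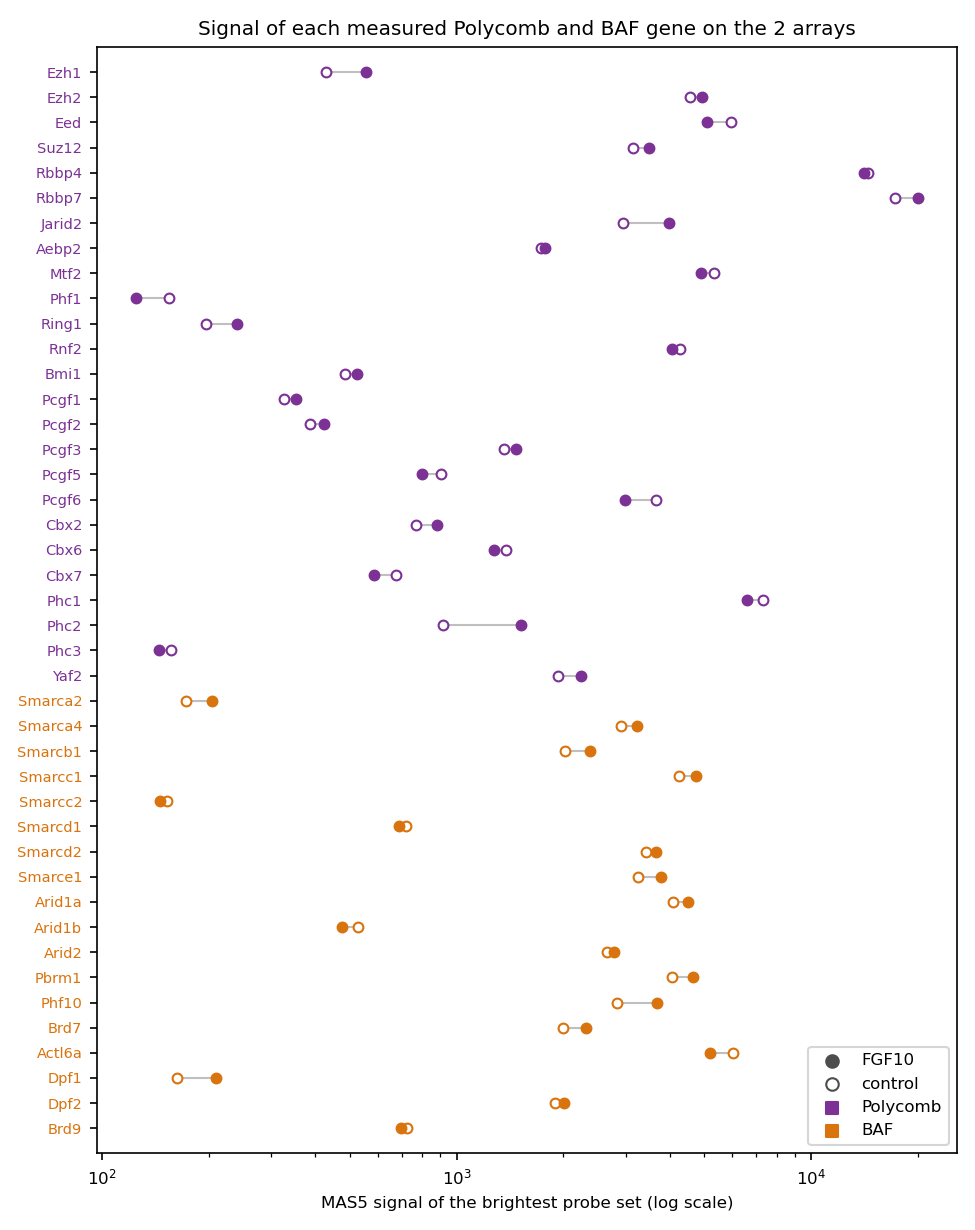
MAS5 signal of each measured subunit on its brightest probe set (log axis), with filled points for the FGF10 array and open points for the control array, Polycomb in purple and BAF in orange. The widest gap is that of Phc2, 1521.2 with FGF10 and 913.6 in control, and most other pairs nearly touch.

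Phc2 is a Polyhomeotic protein, a PRC1 subunit that polymerises and helps to cluster Polycomb-bound chromatin. Its brightest probe set read 1521.2 on the FGF10 array and 913.6 on the control array, a log2 ratio of 0.70 (1.63-fold). Its other probe set read 1085.3 with FGF10 and 708.3 in control (0.58), just short of 1.5-fold, which is 0.585 on this scale. Both probe sets were therefore higher with FGF10, and by similar amounts. The brighter one is of the _x_at type, which may share probes with other transcripts, and without such probe sets Phc2 stood at 0.58 and no subunit passed 1.5-fold. Its paralogue Phc1 read 6587.7 with FGF10 and 7335.5 in control (-0.19, or -0.05 after loess normalization). Phc3 read 144.5 with FGF10 and 156.3 in control (-0.15). The ratio of Phc2 exceeded that of Phc1 by 0.89, against a probe set SD of 0.31 for such a difference, and that of Phc3 by 0.85, against 0.45.

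Because Phc2 is the only subunit past 1.5-fold, the 250 bases before each of its 3 annotated starts are shown, from RefSeq on build GRCm38.p6, plus strand of chromosome 4, with CG dinucleotides in capitals. They lie at chr4:128654452-128654701, chr4:128688488-128688737 and chr4:128727321-128727570, in that order, and hold 13, 1 and 34 CG dinucleotides. The arrays do not tell from which start the measured transcript came.
Phc2 start 1: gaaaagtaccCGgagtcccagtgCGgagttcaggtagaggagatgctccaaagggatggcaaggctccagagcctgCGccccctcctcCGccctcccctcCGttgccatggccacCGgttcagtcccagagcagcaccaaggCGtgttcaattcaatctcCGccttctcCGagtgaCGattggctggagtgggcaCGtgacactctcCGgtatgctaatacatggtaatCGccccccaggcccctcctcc
Phc2 start 2: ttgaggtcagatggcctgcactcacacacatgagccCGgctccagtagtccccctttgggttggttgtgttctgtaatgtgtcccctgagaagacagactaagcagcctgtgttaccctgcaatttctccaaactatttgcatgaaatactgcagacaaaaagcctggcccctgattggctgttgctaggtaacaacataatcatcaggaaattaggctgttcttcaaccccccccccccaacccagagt
Phc2 start 3: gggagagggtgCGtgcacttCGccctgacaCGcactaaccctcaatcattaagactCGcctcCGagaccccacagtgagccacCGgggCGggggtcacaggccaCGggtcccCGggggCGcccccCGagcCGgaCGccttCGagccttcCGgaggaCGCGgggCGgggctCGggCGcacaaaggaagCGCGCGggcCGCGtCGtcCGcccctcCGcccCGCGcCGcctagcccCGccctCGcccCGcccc

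Most promoters of these genes are rich in CG, a feature that played no part in choosing them. RefSeq windows running from 250 bases before to 50 bases after the start were available for 43 of the 49 genes (53 windows). They held a median of 29 CG dinucleotides, from 2 to 62, against 7 over all 32851 windows of the same length. Those windows belong to 27025 genes, measured on these arrays or not, so the subunits were not compared with measured genes alone. The Polycomb windows had a median of 23.5 and the BAF windows of 33. The letters CCGGAAG, a sequence that ETS factors such as those downstream of FGF signalling can bind, were searched on both strands. They occurred in 5 of the 53 windows (9.43%), beside 8.86% of all windows. By family this was 1 of 32 Polycomb windows (3.12%) and 4 of 21 BAF windows (19.0%). The sequence itself contains CG, and all windows hold fewer CG than these, so 8.86% is not a like background. The third start of Phc2 was the only Polycomb window with CCGGAAG, and the BAF genes with it were Brd9, Smarca2 and Smarcc1. None of these 3 BAF genes was past 1.5-fold.

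No PRC2 core subunit reached 1.5-fold on its brightest probe set. Ezh2, the main H3 methyltransferase of stem cells, read 4934.5 with FGF10 and 4556 in control (0.08) on its only probe set. Ezh1, its less active paralogue, read 554.9 with FGF10 and 428.6 in control (0.34), and its second probe set was at 0.09. The ratio of Ezh1 exceeded that of Ezh2 by 0.26, less than the probe set SD of 0.38 for that difference. Eed, which binds the methyl mark that PRC2 deposits, read 5104.9 with FGF10 and 5938.5 in control (-0.25). After loess normalization Eed was at -0.14, and after quantile normalization at -0.15. The histone-binding proteins Rbbp4 (-0.06) and Rbbp7 (0.18), which other complexes also use, depended on the normalization. Rbbp7 read 20043.3 with FGF10 and 17289.4 in control. After loess normalization Rbbp4 was at 0.15 and Rbbp7 at 0.42, and after quantile normalization they were at 0.14 and 0.43.

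Suz12, the scaffold of PRC2, was slightly higher with FGF10 on every kept probe set. On the brightest it read 3494.5 with FGF10 and 3147.4 in control (0.12). The following 2 in brightness were at 0.23 and 0.14. The 3 dimmest were further from 0, at 0.53, 0.77 and 0.41. The highest of them, with signals of 246.6 with FGF10 and 141.1 in control, is past 1.5-fold, so the size of the difference depends on the probe set while its sign does not.

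Among the PRC2 accessory subunits, Jarid2 differed most. Jarid2 helps PRC2 to reach its targets and is abundant in embryonic stem cells. Its brightest probe set read 3975.9 with FGF10 and 2943.3 in control (0.40, 1.32-fold). The second read 3359.9 with FGF10 and 2663.7 in control (0.30), and the third read 1550.7 with FGF10 and 1320.7 in control (0.20). All 3 were higher with FGF10, and none reached 1.5-fold. Aebp2, found in the same form of PRC2 as Jarid2, was at -0.01, and its 4 kept probe sets ran from -0.01 to 0.30.

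The Polycomb-like proteins link the other form of PRC2 to CG-rich DNA. Mtf2 read 4905 with FGF10 and 5313.2 in control (-0.15), and 4 of its 5 kept probe sets were below 0, within a range of -0.34 to 0.25. After loess or quantile normalization it was at -0.04. Phf1 was dim, at 124.6 with FGF10 and 154.9 in control (-0.35), inside the SD of 0.39 for such dim genes. Phf19, the third of the family, read 80 with FGF10 and 71 in control, just under the signal filter, and is not counted.

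PRC1 is built around an E3 ligase, either Ring1 or Rnf2. Ring1 read 240.7 with FGF10 and 196 in control (0.26), and Rnf2, the main ligase of stem cells, read 4059.4 with FGF10 and 4277.2 in control (-0.11). The other kept probe sets of Rnf2 were at -0.02 and, for a dim one, -0.55. The difference between the paralogues, 0.37, was under its probe set SD of 0.43.

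The Pcgf proteins pair with the ligase, and each defines a variant of PRC1. Bmi1 and Pcgf2, found in the canonical complexes, were at 0.09 each, with signals of 524.9 with FGF10 and 483.2 in control for Bmi1 and of 423.1 with FGF10 and 387 in control for Pcgf2. Pcgf1 (0.08) and Pcgf3 (0.07) were as close to 0. Pcgf5 read 797.8 with FGF10 and 907 in control (-0.22), with 0.16 on the second probe set. Pcgf6, which acts in a variant that silences germline genes in stem cells, was the lowest of the family, at 2993 with FGF10 and 3656 in control (-0.32). After loess normalization Pcgf6 and Pcgf5 were both at -0.24, and after quantile normalization at -0.24 and -0.25. The second probe set of Pcgf6 was at -0.21, but the dimmest, at 498.8 with FGF10 and 383.7 in control, was at 0.34, the other sign.

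The Cbx proteins read the mark left by PRC2, and Cbx7 is the form that predominates in embryonic stem cells, while Cbx2 and Cbx8 come up on differentiation. Cbx7 read 583.8 with FGF10 and 676 in control (-0.25), and Cbx2 read 881.7 with FGF10 and 770.7 in control (0.16). The second probe set of Cbx2 was at 0.28. Cbx2 thus exceeded Cbx7 by 0.41 in log2 ratio, about the size of the probe set SD of 0.40 for the difference. A second probe set of Cbx7 was at -1.41, the lowest of all kept ones, with 46.1 on the FGF10 array, below the filter value, and 119.3 on the control array. Cbx6 was at -0.15 and -0.23 on its probe sets. Cbx8 read 61.8 with FGF10 and 75.6 in control, below the filter.

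Yaf2, which takes the place of Cbx proteins in variant PRC1, read 2252.4 with FGF10 and 1938.9 in control (0.18), and 0.16 on the other probe set. Its paralogue Rybp had no probe set annotated with its symbol alone and was not analysed here.

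**Figure D2:**
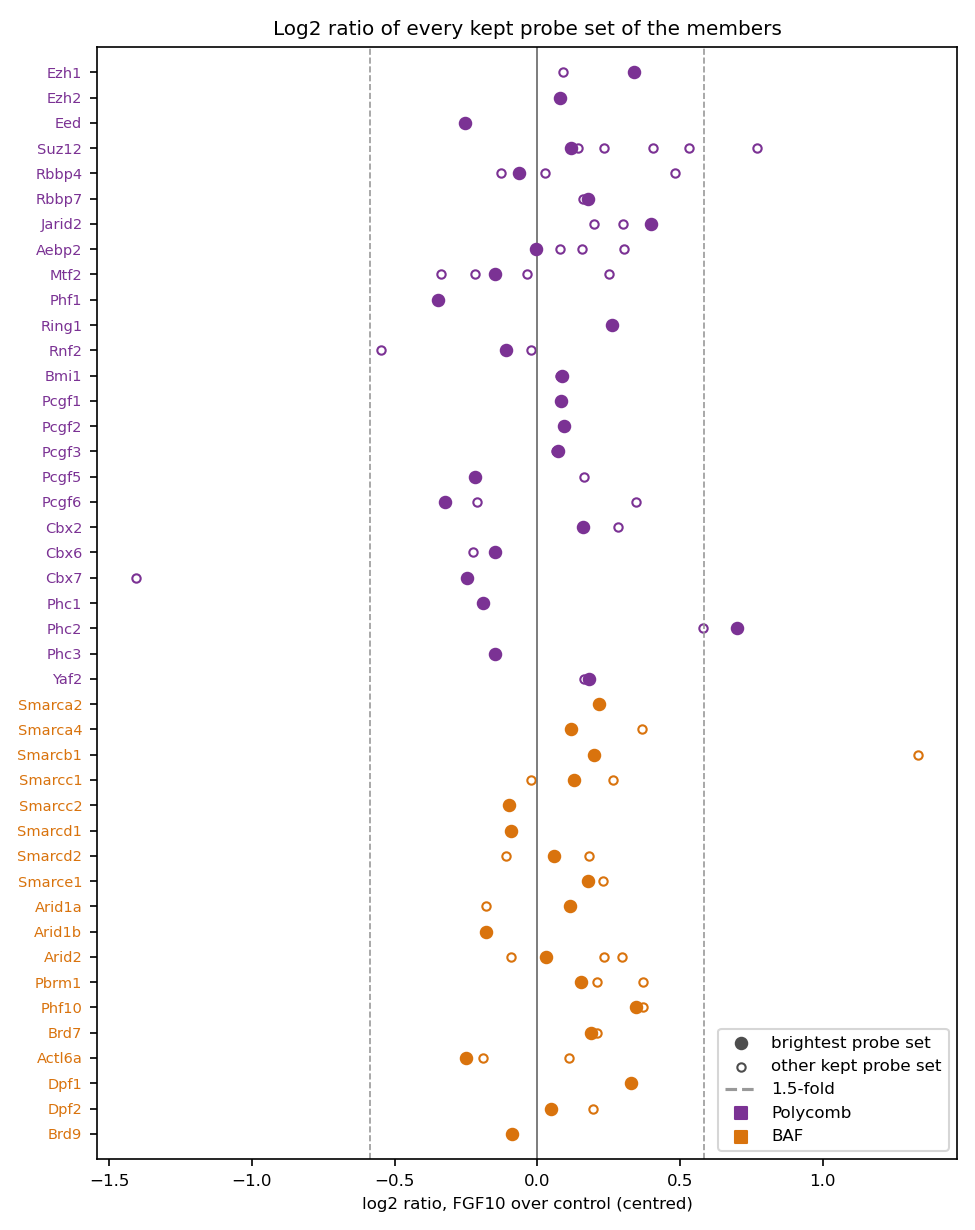
Log2 ratio of FGF10 over control for every kept probe set of the 43 measured subunits, with filled points for the brightest probe set, open points for the others and dashed lines at 1.5-fold. Phc2 is the only filled point past a dashed line, at 0.70, and the open points past it belong to Suz12 (0.77), Smarcb1 (1.33) and Cbx7 (-1.41).

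The BAF ratios spanned a narrower range than the Polycomb ratios, -0.25 to 0.35 against -0.35 to 0.70. Both ATPases lay above 0. Smarca4, the motor of BAF in embryonic stem cells, read 3235.2 with FGF10 and 2909.6 in control (0.12), and its second probe set was at 0.37. Smarca2, the alternative motor that becomes used in differentiated cells, was dim at 204.7 with FGF10 and 172.2 in control (0.22). The difference between them, 0.10, was far below its probe set SD of 0.43.

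The BAF core subunits were mostly just above 0. Smarcc1, the scaffold of stem cell BAF, read 4740 with FGF10 and 4232.2 in control (0.13), while Smarcc2, which joins on differentiation, was dim at 145.4 with FGF10 and 152 in control (-0.10). Smarce1 was at 0.18 and 0.23 on its 2 kept probe sets. Smarcd1 (-0.09) and Smarcd2 (0.06) were near 0. Smarcd3, the form used in the heart lineage, read 40.7 with FGF10 and 9.6 in control, both below the filter, and gives no usable ratio.

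Smarcb1, a core subunit also known as a tumour suppressor, gave very different sizes on its kept probe sets. The brightest read 2383.3 with FGF10 and 2028.4 in control (0.20). The second, of the _x_at type, read 2233.9 with FGF10 and 865.5 in control, a log2 ratio of 1.33 and the highest of any kept probe set of the subunits. Both were higher with FGF10, but they are far apart. For genes this bright the SD of 1 probe set is only 0.20 to 0.24, so the data do not settle the size.

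Arid1a and Arid1b are alternative DNA-binding subunits of the canonical BAF complex. Arid1a read 4513.4 with FGF10 and 4074.8 in control (0.11) and was at -0.18 on its second probe set, and Arid1b read 475.9 with FGF10 and 525.9 in control (-0.18). Actl6a, the actin-related subunit of stem and progenitor cells, was the lowest BAF subunit, at 5191.2 with FGF10 and 6023.9 in control (-0.25), with -0.19 and 0.11 on the other probe sets. That rank depended on the normalization. After loess normalization Actl6a was at -0.13 and Arid1b lower, at -0.22, and after quantile normalization they were at -0.15 and -0.23. Actl6b, the neuronal counterpart of Actl6a, read 42.7 with FGF10 and 1.7 in control, both below the filter. Among the Dpf proteins, readers of modified histone H3, Dpf2 was at 0.05 and 0.20 on its probe sets. Dpf1, a form found in neurons, was at 209.1 with FGF10 and 162.8 in control (0.33), within its SD of 0.39, and Dpf3 read 50.4 with FGF10 and 62.3 in control, below the filter.

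The 4 subunits particular to PBAF, the form of the complex that contains a polybromo protein, were all above 0. Phf10 read 3688.5 with FGF10 and 2833.6 in control (0.35, 1.27-fold), the highest BAF subunit, and its second probe set was at 0.37. Pbrm1, the polybromo protein itself, read 4633.8 with FGF10 and 4068.4 in control (0.15), with 0.37 and 0.21 on its other probe sets. Brd7 was at 0.19 and 0.21, and Arid2 was at 0.03, with 0.23, 0.30 and -0.09 on its others. Brd9, which marks the non-canonical BAF complex, read 696.4 with FGF10 and 723.9 in control (-0.09).

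As groups, both families lay slightly above the array-wide median. The median log2 ratio was 0.07 over the 25 Polycomb genes and 0.12 over the 18 BAF genes, beside -0.03 over all genes measured. Of the Polycomb genes 13 were above 0 and of the BAF genes 13, beside 46.5% of all genes. Each family had 12 genes in the brightest group, where the median of all genes was -0.11 and 33.4% were above 0. There 11 of 12 BAF genes were above 0, with a median of 0.12, and 5 of 12 Polycomb genes, with a median of -0.03. Normalization by loess on signal, which removes the trend with brightness, gave medians of 0.17 for BAF and 0.04 for Polycomb. The difference between the families was not tested, since that would need replicate arrays.

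A threshold of 1.2-fold, chosen after the values were seen, added few genes. Past it, Phc2, Jarid2 and Ezh1 of the Polycomb list were higher, and Phf1 and Pcgf6 lower. In the BAF list Phf10 and Dpf1 were higher and 0 were lower. This is 5 of 43 higher and 2 lower, against 18.6% of all genes higher and 21.7% lower. Ezh1, Dpf1 and Phf1 lie within about 1 probe set SD of 0.

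**Figure D3:**
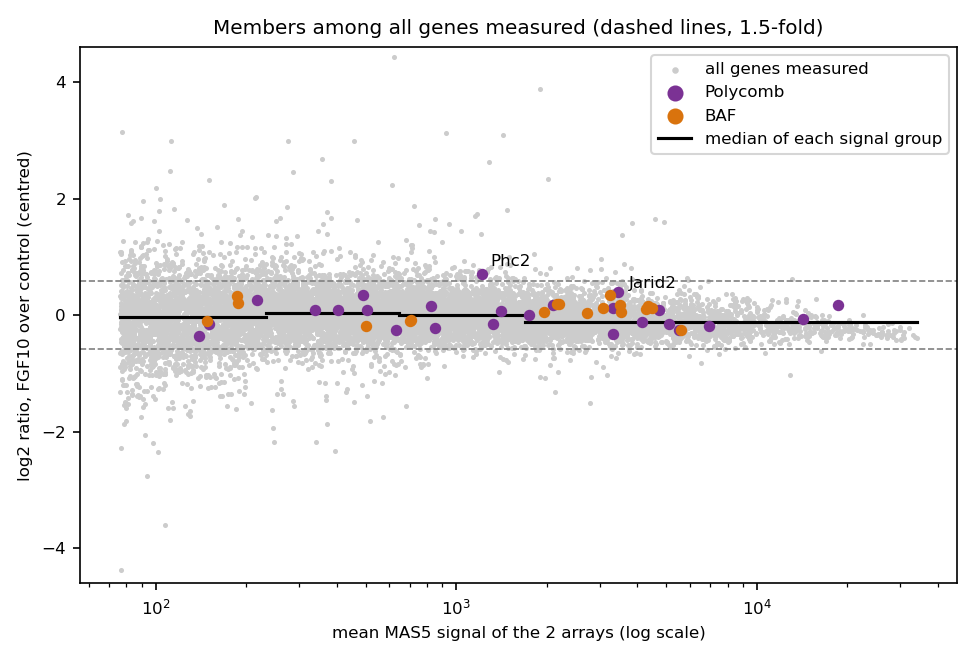
Log2 ratio of FGF10 over control against mean signal (log axis) for all 11122 genes measured (grey), with Polycomb in purple, BAF in orange, black bars at the median of each of the 4 signal groups and dashed lines at 1.5-fold. Phc2, at 0.70, is the only subunit past a dashed line, with grey genes of like brightness around it, and the black bar of the brightest group is at -0.11.

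Other probe sets gave the same sign in most cases. The 2 brightest shared a sign in 24 of the 29 subunits that have several, and in 65.7% of all such genes. All kept probe sets were above 0 in 16 subunits and below 0 in 3, beside 27.8% and 26.2% of genes with at least 2 kept probe sets. For BAF the numbers were 7 of 12 above and 0 below, and for Polycomb 9 of 17 above and 3 below, namely Rnf2, Cbx6 and Cbx7. Among 92 kept probe sets of the subunits, 3 were at least 1.5-fold higher, belonging to Phc2, Suz12 and Smarcb1, and 1 was lower, that of Cbx7. Over all kept probe sets of the arrays, 7.03% were at least 1.5-fold higher and 4.71% lower. The 26 probe sets under the filter ran from -4.58 to 4.62, with signals of 1.7 to 80, and are not read as differences.

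Other genes of the same machinery were read from lists made by function, with earlier results of these data known. The 23 measured of 26 further Polycomb-associated genes had a median of 0.09, and past 1.5-fold were 1 higher gene and 0 lower ones. The higher gene was Scmh1, a PRC1-associated protein, at 173.9 with FGF10 and 111.9 in control (0.60). The 10 further BAF genes had a median of 0.31, with 2 past 1.5-fold upward and 0 downward, beside 5.41% and 4.86% of all genes. Of these 10, 5 were past 1.2-fold upward and 0 downward, against 18.6% and 21.7% of all genes, and 4 of the 10 were below 0. Besides the 2 past 1.5-fold, those past 1.2-fold were Bicra (0.56), Ss18l1 (0.51) and Bcl7a (0.48), each on 1 kept probe set. The 10 genes were dimmer than the BAF subunits (median signals of 398 and 2460), and dimmer genes spread more on these arrays. Bcl11a, a zinc finger subunit found in neural and blood cells, read 552.1 with FGF10 and 266.5 in control (1.02), but its 6 kept probe sets ran from -0.46 to 1.02. Its paralogue Bcl11b read 365.1 with FGF10 and 205.2 in control (0.80), and its 3 kept probe sets were all above 0, the lowest at 0.35.

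Developmental genes that Polycomb is known to occupy in embryonic stem cells are given as a description, since the list was chosen when the strong streak response of these arrays was already known. Of 42 such genes 16 were bright enough to be measured, and they were dimmer than the subunits (median signals of 235 and 2100). Dimmer genes spread more on these arrays, with an SD of log2 ratios of 0.55 in the dimmest group of genes and 0.27 in the brightest. Their median was 0.60, and 8 were at least 1.5-fold higher, 3 lower and 5 within 1.5-fold. Of the 3 lower, Gata2 (66.8 with FGF10 and 133.4 in control) and Pax6 (53.6 with FGF10 and 101.2 in control) were under the filter value of 76.35 on the FGF10 array, so the size of their difference is not known. Sox7 was the other, at 137.2 with FGF10 and 204.9 in control (-0.61). Mixl1, a homeobox gene of the primitive streak, read 3570.6 with FGF10 and 238.2 in control (3.87), and the endoderm factor Foxa2 read 2563.4 with FGF10 and 292.5 in control (3.10). Gsc (2.46) and Lhx1 (2.23) followed. Leaving out Mixl1, Eomes, Gsc and Foxa2, which also mark the streak, the median was 0.06 over 12 genes, 4 of them higher and 3 lower. The 4 higher were Lhx1 (2.23), Evx1 (1.17), Gata6 (0.96) and Sox17 (0.68). Only genes among the streak markers used here were left out, so other streak genes may remain in the 12. The other 26 of the 42 genes, most Hox genes among them, were below the filter or had no probe set of their own.

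**Figure D4:**
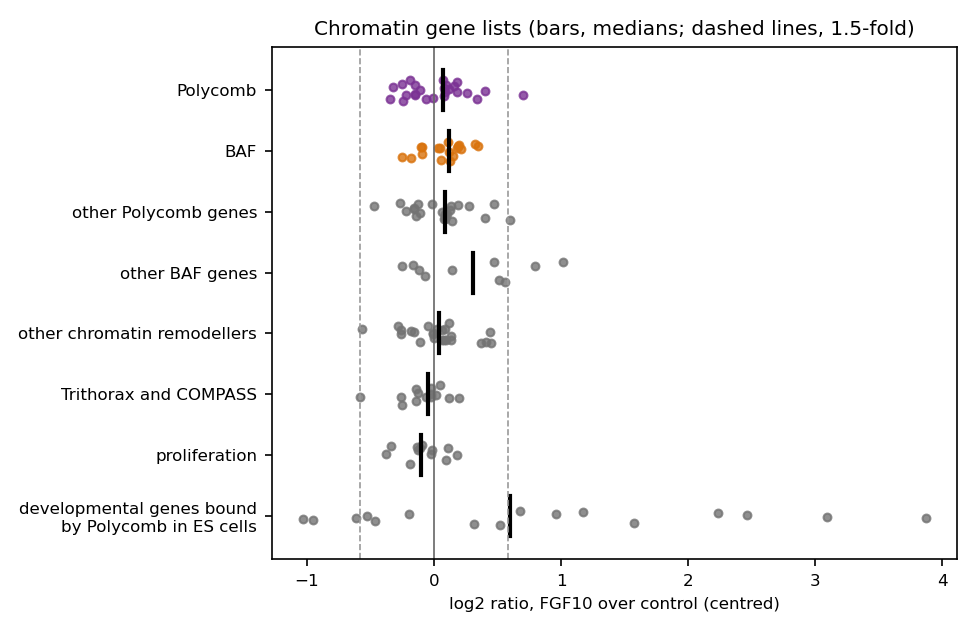
Log2 ratio of FGF10 over control for each measured gene in 8 lists, with black bars at the medians and dashed lines at 1.5-fold. Polycomb (median 0.07) and BAF (0.12) form narrow clusters near 0, while the developmental genes bound by Polycomb (0.60) reach 3.87 upward, their points at -1.03 and -0.95 being Gata2 and Pax6, whose FGF10 signals are under the filter.

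Several cell type markers differed on the same arrays by more than any subunit did. Of 5 primitive streak markers all were at least 1.5-fold higher, with a summed signal of 13027.4 with FGF10 and 2605.7 in control. Such sums are weighted toward the brightest probe sets and are not amounts of RNA. Of 6 visceral endoderm markers 4 were at least 1.5-fold lower, with sums of 5096.6 with FGF10 and 7810.8 in control. Of 5 pluripotency markers 2 were at least 1.5-fold lower, Dppa5a (-1.03) and Zfp42 (-0.71), while Pou5f1 (0.07), Nanog (0.22) and Sox2 (-0.0026) were within 1.5-fold. Their sums were 32130.1 with FGF10 and 39172.2 in control, and without Dppa5a 23481.4 with FGF10 and 21984 in control, so Dppa5a alone sets the direction of the sum. Of 8 fibroblast feeder markers 6 were below the filter, and Col1a2 and Thy1 together summed to 368.8 with FGF10 and 506.2 in control. In bulk RNA, fewer cells of a type and less RNA per cell cannot be told apart, and the part of cell mixture in the ratios above was not tested.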

How the data were processed

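Per the submitters' processing notes, the deposited values are MAS5 signal, a linear intensity per probe set with no version or settings given. The mean of each array without its lowest and highest 2% is 500.003, so a ratio compares a gene with everything else on its array. The table has 45101 probe sets and 2 arrays, with 0 other columns of samples. The precision is limited by the number of arrays, 1 per group.

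Gene names come from GEO's annotation of the platform, and probe sets with several symbols or none were left out. The filter kept 22524 probe sets whose mean over the arrays reached 76.35, the median over probe sets that are not chip controls. Of the 48 subunits with a probe set, 48 carry the same symbol in the RefSeq gene table. A gene took its brightest kept probe set. Ratios and counts were computed with numpy 2.4.6, pandas 2.3.3 and statsmodels 0.14.6 (loess), and the steps were tested on simulated data.

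The subunits and lists were chosen with earlier results of these data known. Paralogue families, genes past 1.5-fold and, from each other list, up to 4 such genes were to be named with full values. Jarid2, Suz12, Smarcb1, Phf10 and other subunits given in full were added after their values were seen. Alternatives covered centring, normalization, offset, filter, choice of probe set and threshold.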

Additional observations from a re-analysis of the deposited data

How the results depend on the processing

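Phc2 stayed past 1.5-fold in 9 of 11 alternatives at that threshold and kept its sign in all 11. The alternatives of centring, normalization, offset and filter all read the same probe set of Phc2, so they are not independent checks. Phc2 fell short, leaving 0 higher Polycomb genes, on second brightest probe sets (0.58) and without _x_at and _s_at probe sets (0.58), and 0 were past 2-fold. Means over probe sets gave 1 lower Polycomb gene (Cbx7, -0.83) and 1 higher BAF gene (Smarcb1, 0.77), and second brightest probe sets did so too, with Cbx7 at -1.41, Smarcb1 at 1.33 and a BAF median of 0.20. With no filter, 2 BAF genes passed, Smarcd3 and Actl6b. At 1.2-fold, added later, 3 Polycomb genes were higher and 2 lower, and 2 BAF genes higher. The medians of both families were above 0 in every alternative.

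All-gene counts moved most with the filter. With no filter 2516 genes were 1.5-fold higher and 2895 lower, and 1459 and 1805 past 2-fold. At the 75th percentile these were 236 and 94, and 42 and 14. With both arrays above the filter 97 were 2-fold higher and 74 lower, and with low signals raised to it 87 were 2-fold lower. At 2-fold, 147 were higher and 144 lower, and at 1.2-fold 2071 and 2413. The causes were not tested. No paired analysis was possible because each group has 1 array. Signals under 76.35 may not be above background.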

Other observations

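Other chromatin machinery was read from lists chosen in the same way as the related Polycomb and BAF genes. Of 24 nucleosome remodellers outside BAF, 0 were at least 1.5-fold higher and 0 lower, with a median log2 ratio of 0.04. Hells, a remodeller needed for DNA methylation, was the lowest of them, at 6957.6 with FGF10 and 10039.5 in control (-0.56). Of 14 measured Trithorax and COMPASS genes, which oppose Polycomb by methylating histone H3 at another site, 0 were past 1.5-fold, with a median of -0.05. Dpy30, a core COMPASS subunit, read 6366.4 with FGF10 and 9299.5 in control (-0.58), just inside 1.5-fold. Of 12 measured proliferation genes 0 were past 1.5-fold, with a median of -0.10, and Pcna read 18280.5 with FGF10 and 23240.2 in control (-0.38). Over all genes the shares past 1.5-fold were 5.41% upward and 4.86% downward, and in the brightest group 0.971% and 1.4%. Counts of 0 in lists this short are near those shares and are not read as a trait of the lists.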
